A study of Mus musculus with 2 samples.

Results

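The B cell antigen receptor works together with a small set of surface proteins, and the chromatin around 7 genes of this kind was examined in resting mouse B cells. The genes were Cd79a, Cd79b, Cd81, Ms4a1, Cd37, Cd38 and Cd24a, chosen by name for their place in the receptor or on the B cell surface. The choice used no threshold on a measured value, but it was made with earlier results of these data known. They are 7 of 22350 protein-coding genes annotated on chromosomes 1 to 19 and X. A DNase I hypersensitive site (DHS) is a short region that the enzyme cuts readily because it is not packed in nucleosomes. A DHS was assigned to a gene when it overlapped the gene body or the 50 kb on either side by at least 1 bp. In this way 90 of 47474 DHS on these chromosomes were assigned to the 7 genes, and no DHS was assigned to more than one of them.

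The study followed the action of p53 in B cells exposed to genotoxic stress. The DHS come from primary splenic B cells of C57/Bl6 mice, Trp53+/+, mock treated and 8 weeks old, enriched on magnetic beads against B220. The data hold 1 DNaseI library and 1 input library, and the single peak list of the former was analysed. Every value below is thus a value of 1 library without a replicate, and 95% exact binomial (Clopper-Pearson) intervals on counts cover counting error only. Each DHS carries a score from the peak caller whose scale is not stated, so that scores were used as ranks within the list. The summed promoter scores given below are an exception, as a sum treats this scale as additive. The score ran from 5.05 to 619.44 over the whole list, with a median of 32.65. The list gives no read counts, the depth is unknown, and where no DHS was called this says only that none passed the caller at that depth. A peak list also does not tell a site open in few cells from one that is weakly open in all of them.

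Cd79a and Cd79b (Igα and Igβ) form the signalling pair of the B cell receptor. They anchor the immunoglobulin at the surface and pass its signal to kinases through their cytoplasmic tyrosine motifs. Cd81 is a tetraspanin of the co-receptor complex, Cd37 is a tetraspanin of leukocytes, and Ms4a1 encodes CD20, a four-pass membrane protein of B cells. Cd38 is a surface enzyme that makes cyclic ADP-ribose, and Cd24a, the heat stable antigen, is a small lipid-anchored glycoprotein. In B lineage cells the promoters of Cd79a and Cd79b are textbook targets of the factors EBF1 and PAX5, and ETS factors such as PU.1 act at many genes of this kind.

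The labelled cell type was first checked against marker genes. All 12 of the B cell markers looked up (among them Pax5 and Ebf1) had a DHS at their promoter, defined as the stretch from 5 kb upstream to 2 kb downstream of a transcription start site (TSS). Of 12 T cell markers, 4 had one, namely Cd247, Cd5, Lck and Cd2, while Cd3e, Cd3d, Cd3g, Cd4 and Cd8a were among those without. The count was 3 of 8 for NK cells (without Ncr1, Klrk1, Klrd1, Gzma and Eomes), 6 of 12 for myeloid cells (the highest scores at Cd68, Cd14 and Elane), 3 of 8 for erythroid cells (Epor, Alas2 and Slc4a1 were among those without) and 4 of 6 for plasma cells (without Igj and Tnfrsf17). Over all protein-coding genes the share with a promoter DHS was 57%, so that the myeloid (50%) and plasma cell (66.7%) lists were near the background. Some of these genes, such as Cd5, Lck and Cd68, are also used outside the cell type they stand for here.

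The stretch just upstream of the TSS is shown for 4 of the genes, the receptor pair and the genes with the highest promoter scores of the 7, Cd37 and Cd24a. In each of them all 200 bases lay inside a DHS and none of it is exon. It is printed 5′ to 3′ on the strand of the gene, from mm9, and ends at the base before the 5′-most TSS. Capitals mark short binding words found on either strand: the EBF1 word TCCCNNGGG and the PU.1 word GAGGAAGT with at most 1 mismatch, and without mismatch the E-box CAGCTG and the GC box GGGCGGGG. The positions are chr7:25682200-25682399 (+) for Cd79a, chr11:106176077-106176276 (-) for Cd79b, chr7:52494486-52494685 (-) for Cd37 and chr10:43298775-43298974 (+) for Cd24a.
Cd79a: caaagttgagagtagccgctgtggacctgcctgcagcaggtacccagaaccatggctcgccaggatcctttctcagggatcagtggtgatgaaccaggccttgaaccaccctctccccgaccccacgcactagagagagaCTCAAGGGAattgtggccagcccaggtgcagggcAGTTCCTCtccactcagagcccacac
Cd79b: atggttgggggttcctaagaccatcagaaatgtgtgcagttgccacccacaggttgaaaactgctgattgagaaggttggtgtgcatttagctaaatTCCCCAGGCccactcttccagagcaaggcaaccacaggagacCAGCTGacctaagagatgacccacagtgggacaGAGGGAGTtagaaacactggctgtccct
Cd37: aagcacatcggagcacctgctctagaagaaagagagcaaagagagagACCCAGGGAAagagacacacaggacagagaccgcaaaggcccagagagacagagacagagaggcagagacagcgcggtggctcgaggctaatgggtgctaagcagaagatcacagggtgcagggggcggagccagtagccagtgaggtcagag
Cd24a: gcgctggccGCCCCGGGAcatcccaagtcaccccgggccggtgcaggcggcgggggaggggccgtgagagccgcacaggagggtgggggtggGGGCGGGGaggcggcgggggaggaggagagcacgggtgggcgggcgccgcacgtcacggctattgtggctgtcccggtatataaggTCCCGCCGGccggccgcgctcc

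Cd79a and Cd79b both held an EBF1 word with 1 mismatch and, nearer to the TSS, a PU.1 word with 1 mismatch. In Cd79a these began at base -60 and base -26, and in Cd79b at base -103 and base -28. With 1 mismatch allowed the EBF1 word is found in 47.9% of all promoter stretches and the PU.1 word in 23.6% of 22342 stretches of the same length, so that each match alone is common. Cd79b also held an exact E-box (9.55% of all stretches) and Cd24a an exact GC box (19.3%). The word TATAAA did not begin 40 to 20 bases upstream of the TSS in any of the 7 genes, against 2.35% of all promoters. No other spelling was searched, so that similar words such as TATATAAG, which the Cd24a stretch above holds, were not counted. These are matches of letters and not measured binding.

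All 7 genes had a DHS at the promoter (7 of 7, interval 59.0 to 100%), where the share was 57% over all protein-coding genes. The share differed with the sequence of the promoter. It was 85.5% for genes with a CpG-rich promoter (55% or more G and C, and CpG at 0.6 or more of the number its bases predict, in the 1000 bp around the TSS) and 38.9% for the others. Cd81 and Cd24a had a CpG-rich promoter, with observed over expected CpG of 0.726 and 0.787. The other 5 genes did not, with ratios from 0.137 at Ms4a1 to 0.332 at Cd79a, and all 5 still had a promoter DHS. In each of the 7 the 5′-most TSS itself lay inside a DHS, which was so for 40.7% of all genes.

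The promoter scores of the 7 genes differed widely in rank among genes with a promoter DHS. The highest promoter score was 294.3 at Cd37, 241.9 at Cd24a, 218.84 at Cd81 and 215.77 at Ms4a1. It was 109.17 at Cd79b, 107.54 at Cd79a and 61.95 at Cd38. Among the 12747 genes with a promoter DHS, Cd37 stood at percentile 95.7, and Cd24a, Cd81 and Ms4a1 stood between 89.5 and 92.5. The receptor pair stood near the middle, at percentile 53.8 for Cd79a and 54.7 for Cd79b, and Cd38 at 26.5. When the scores of all promoter DHS of a gene were summed, Cd79b moved to percentile 78.7 and Cd79a to 69.7, Ms4a1 stood at 77.2 and Cd38 at 24.5. By this sum Cd81 came first, at percentile 95.4, before Cd37 at 93.9 and Cd24a at 90.5, and the sum of Cd81 includes the DHS at the start of Tssc4. Ranked only among genes of its own CpG class, Cd37 reached 96.8, Ms4a1 92.0, Cd79b 66.3, Cd79a 65.5 and Cd38 38.7, while Cd24a and Cd81 stood slightly lower than before, at 91.2 and 88.2. Without replicates the spread of a score is not known, and neighbours in this order cannot be told apart by a test.

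**Figure D1:**
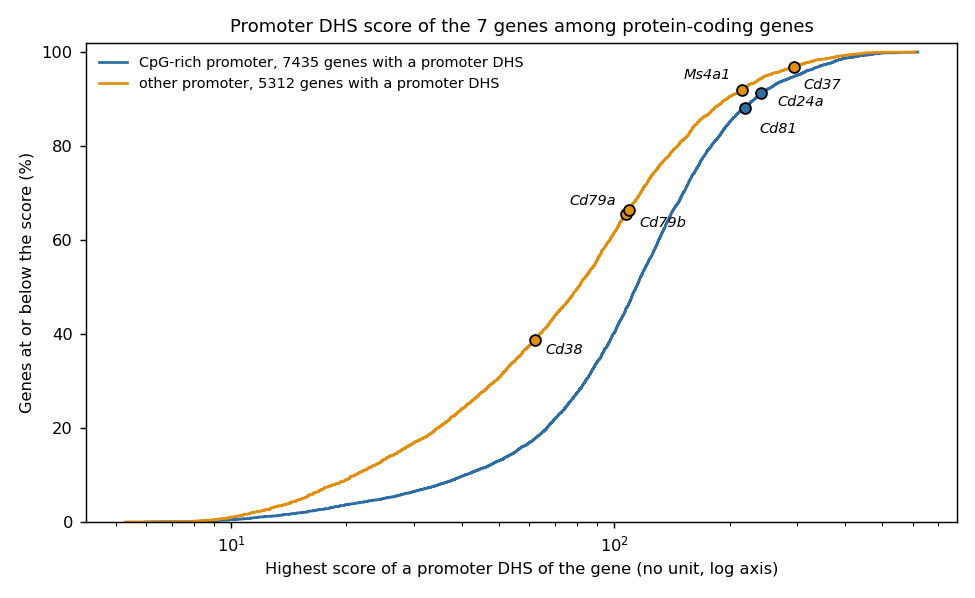
Cumulative share (%) of protein-coding genes by the highest score of their promoter DHS (no unit, log axis), for genes with a CpG-rich promoter (blue) and the others (orange), with the 7 genes as points on the curve of their own class. Cd37, Cd24a, Cd81 and Ms4a1 lie in the upper part of their curve, while Cd79a and Cd79b lie at percentiles 65.5 and 66.3 of theirs and Cd38 at 38.7.

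The shape of the promoter DHS differed among the genes, beginning with the receptor pair. At Cd79a (ENSMUSG00000003379.7, chr7:25682400-25687216, + strand) a DHS of 2310 bp and score 107.54 reached from 754 bp upstream to 1555 bp downstream of the TSS. A small DHS with score 44.81 lay immediately upstream, one with score 25.01 was centred at -4820 bp, and a low one with score 7.74 lay over introns and exons of the gene. A wider DHS of 4257 bp and score 181.81 began in the last part of Cd79a and ran on over the start of Arhgef1, a guanine nucleotide exchange factor gene. As a result 76.0% of the 4817 bp of Cd79a was covered by DHS, against a median of 4.79% for genes of similar length.

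Cd79b (ENSMUSG00000040592.5, chr11:106172655-106176076, - strand) was covered almost from end to end. A DHS of 610 bp and score 63.57 covered the 5′-most TSS and was followed, after a gap of 69 bp, by one of 5136 bp and score 109.17. The latter covered the second annotated TSS and ran past the end of the gene. In all 97.98% of the 3422 bp of the gene lay in DHS, and the median for genes of similar length was 0%. Cd79b thus stood at percentile 99.5 and Cd79a at percentile 99.1 of body coverage among genes of like length. The other promoter DHS of Cd79b were low, at 21.47 and 28.35, and the latter lay over exons of Scn4a, the muscle sodium channel gene upstream.

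Among the tetraspanins, Cd81 (ENSMUSG00000037706.10, chr7:150238644-150253839, + strand) had a DHS of 1919 bp and score 218.84 over its TSS. The same DHS also covered the start of R74862, a long non-coding RNA gene on the opposite strand. A low DHS of score 11.2 lay further upstream, centred at -2561 bp. A further DHS with score 159.26, centred 16377 bp downstream, counts as a Cd81 promoter only through a retained-intron transcript and covers the start of Tssc4. Only 7.73% of the body of Cd81 was covered, which is percentile 70.6 among genes of like length (median 4.39%).

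Cd37 (ENSMUSG00000030798.7, chr7:52489002-52494485, - strand) had the highest promoter score of the 7 genes. Its DHS of 2197 bp was nearly centred on the TSS, with 1121 bp upstream and 1075 bp downstream. A DHS with score 14.23 lay upstream, and DHS with scores of 34.79 and 16.1 lay at the 3′ end of the gene near the starts of processed transcripts. These added up to 33.3% of the gene body.

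Ms4a1 (ENSMUSG00000024673.7, chr19:11324654-11340669, - strand) had a single promoter DHS, but a wide one. It measured 4353 bp with a score of 215.77 and reached 1316 bp upstream and 3036 bp downstream of the TSS. Next to it, inside the gene, lay 3 low DHS with scores of 13.31, 10.79 and 17.05, all without exon bases of Ms4a1. Body coverage was 29.1%, against 4.27% for genes of like length.

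At Cd24a (ENSMUSG00000047139.8, chr10:43298975-43304068, + strand) the promoter DHS was of nearly the same width, 4308 bp with a score of 241.9. It extended almost evenly, 1979 bp upstream and 2328 bp downstream. A pair of smaller DHS with scores of 24.97 and 43.66 lay upstream, centred at -4279 and -3823 bp. The DHS of its own promoter made up 65.0% of all covered bases in the window of Cd24a, the highest such share among the 7 genes.

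Cd38 (ENSMUSG00000029084.4, chr5:44260048-44303614, + strand) was the exception. The DHS over its TSS measured 1299 bp and had a score of 61.95, with one further promoter DHS of score 10.7, and they made up 8.42% of the covered bases. The higher scores of the gene lay in its body, in introns. A DHS of 1881 bp with score 106.22 was centred 13784 bp downstream of the TSS and one of 2170 bp with score 96.73 at 16209 bp. Further intronic DHS had scores of 32.24 and 40.29. With the promoter-class DHS inside the gene counted too, body coverage was 16.7% for this gene of 43567 bp, where genes of like length had a median of 2.52%. Apart from Cd38, only Ms4a1 had DHS in its own body outside promoters, and those scored below its promoter.

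**Figure D2:**
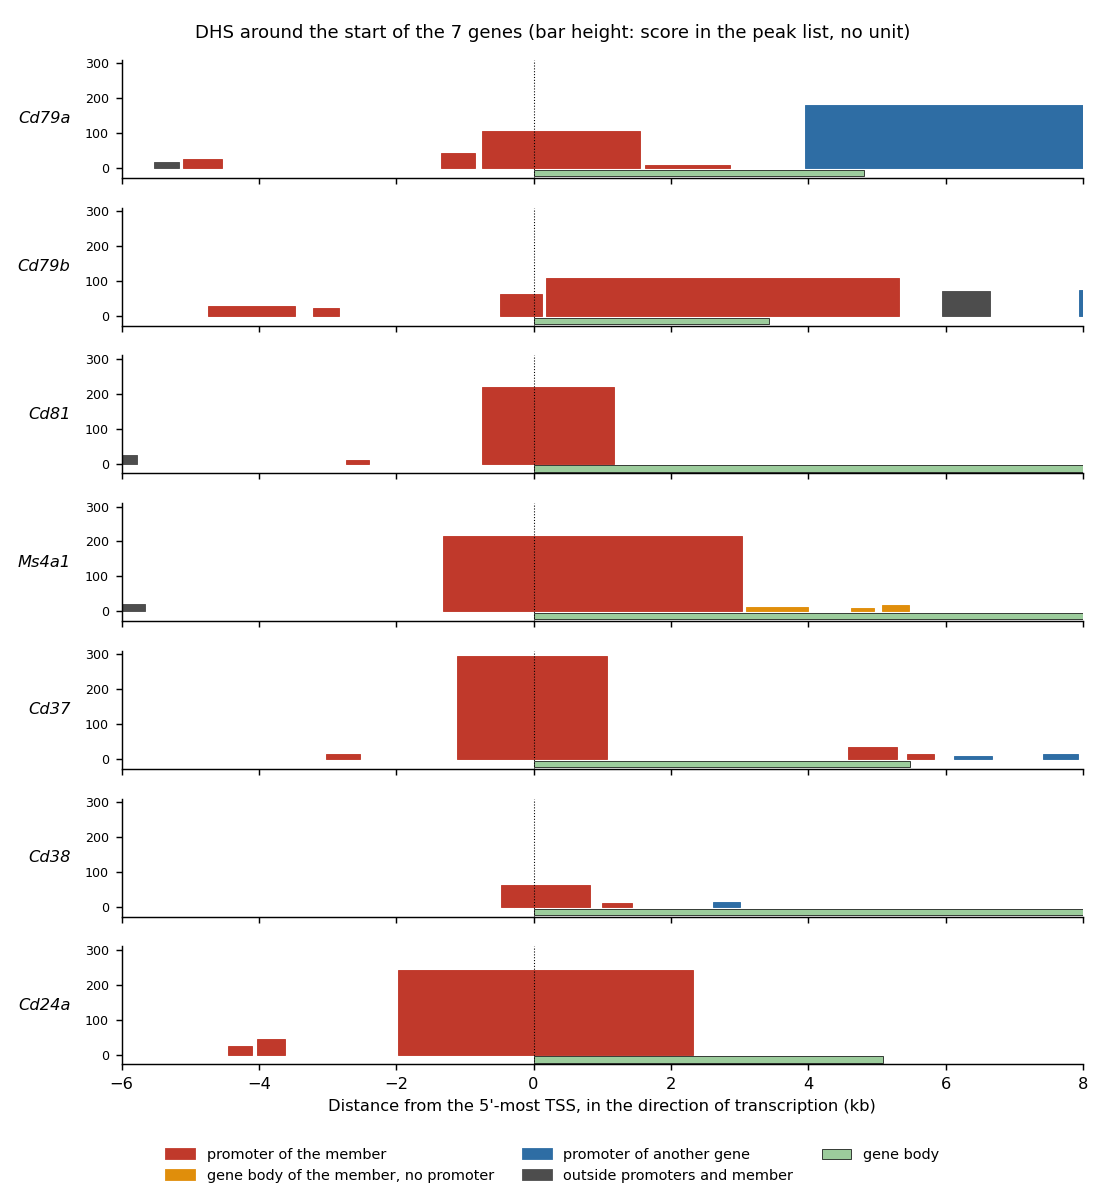
DHS from 6 kb upstream to 8 kb downstream of the 5′-most TSS of each gene, with distance in kb in the direction of transcription on the x axis and the score of each DHS (no unit) as bar height; green boxes are gene bodies. The dotted line at the TSS falls inside a DHS in all 7 genes, the bars of Ms4a1 (4353 bp) and Cd24a (4308 bp) are wide and high, and the bar of Cd38 is low (61.95).

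The surroundings of the genes were rich in DHS. The windows held from 7 DHS at Cd24a to 20 at Cd38. Per 100 kb of window this was 17.4 at Cd79b, 13.93 at Cd38, 12.3 at Cd37, 11.3 at Cd81, 10.5 at Cd79a, 6.90 at Ms4a1 and 6.66 at Cd24a. The median over the 7 was 11.3, against 3.39 over all protein-coding genes (quartiles 0.663 and 6.92). Thus 5 of the 7 values lay above the upper quartile, up to percentile 98.8 at Cd79b, and Ms4a1 and Cd24a lay just under it, at percentiles 74.9 and 73.4. DHS covered 18.7% of the window at Cd79b, 15.8% at Cd79a, 14.1% at Cd38 and 12.96% at Cd81. It was 9.88% at Cd37, 7.42% at Cd24a and 6.92% at Ms4a1, and the median over all genes was 3.06%. The density also differed with the promoter class of the gene, as genes with a CpG-rich promoter had a median of 4.74 DHS per 100 kb and the others 1.99.

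**Figure D3:**
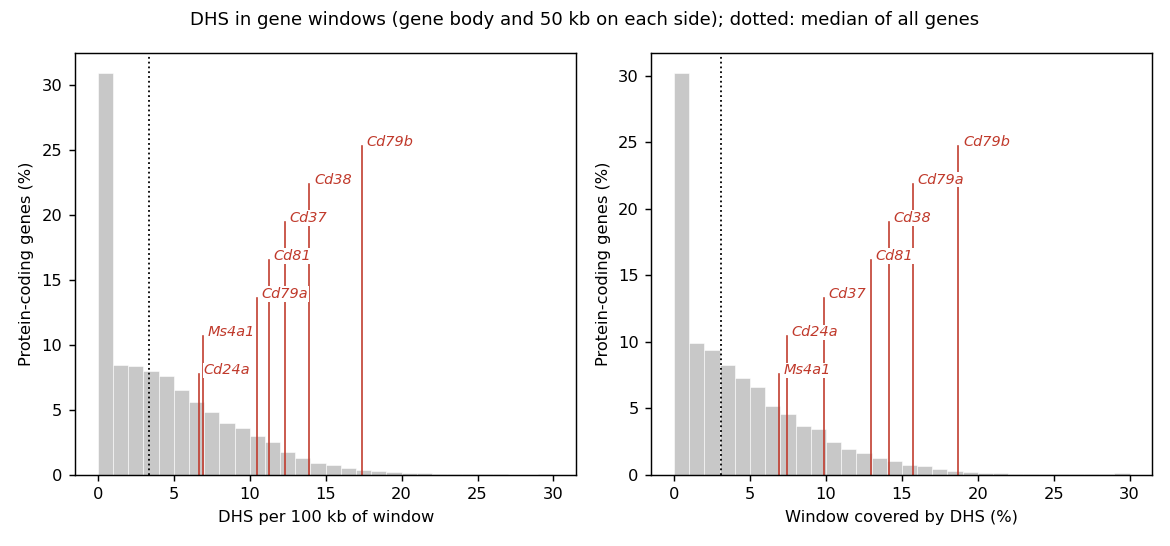
Distribution of DHS per 100 kb (left) and of the share of the window covered by DHS in % (right) over all protein-coding genes (grey, as % of genes, values of 30 or more in the last bin), with the 7 genes as red lines whose height has no meaning. All 7 lie to the right of the dotted medians of 3.39 per 100 kb and 3.06%.

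Many of these DHS belonged to other genes. Of the 90, 21 (23.3%) lay at a promoter of one of the 7 genes, 7 in their bodies outside promoters, 31 at promoters of other genes and 31 elsewhere. The median score was 43.66, 32.24, 47.47 and 29.81 in these classes. By the window around any TSS, 57.8% of the 90 DHS (46.9 to 68.1) were of the promoter class, against 47.5% of all DHS. With a promoter of 1 kb on each side the shares were 37.8% and 36.1%, and among the DHS from the median score up 63.8% and 62.1%. By peak centres they were 55.6% and 45.9%, and with protein-coding genes only 56.7% and 43.5%. The median score of the 90 DHS was 34.9 and that of all DHS 32.65, with median widths of 745.5 and 760 bp. The promoter DHS among the 90 had a median CpG ratio of 0.250, where all promoter DHS had 0.512.

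At 3 of the 7 genes (Ms4a1, Cd37 and Cd24a) the DHS at the TSS had the highest score of the window. At Cd79a the highest was at Rps19, a ribosomal protein gene (251.91), followed by the one at Arhgef1, and the highest distal DHS had 49.27, centred 53048 bp downstream. At Cd79b it was a distal DHS of 1673 bp with score 223.29, centred at -11142 bp inside Scn4a, which itself had no promoter DHS. Further DHS inside Scn4a had scores of 97.6 at -15083 bp and 55.61 at -9988 bp. On the other side lay promoter-class DHS of Gh, the growth hormone gene (96.38), and of Smarcd2 and Tcam1 (94.06 for both, a shared DHS). In humans, hypersensitive sites in CD79B and SCN4A belong to the locus control region of growth hormone.

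At Cd81 the highest score, 222.8, was that of a distal DHS of 2262 bp centred at -14552 bp within the R74862 gene. The nearby tetraspanin gene Tspan32 had a promoter DHS of 222.47. Trpm5, a taste cell ion channel gene, had a promoter-class DHS of 28.33, and Kcnq1 had none. The DHS of Trpm5 was centred at 33764 bp, near a TSS inside that gene. The 5′-most TSS of Trpm5, at 41903 bp, lay in no DHS. Of the Ms4a1 neighbours from the same family, Ms4a14 had a promoter DHS of 17.39 and Ms4a5 and Ms4a12 had none, and the highest distal score was 50.18 at 21452 bp downstream. The neighbours of Cd37 had promoter scores of 85.58 at 1700039E15Rik, 47.47 at Tead2, 34.7 at Ccdc155 and 18.43 at Dkkl1, and its single distal DHS, at 40201 bp, had 21.49. The Tead2 score came from a DHS inside that gene. Upstream of the 5′-most TSS of Tead2 lay the DHS of 18.43 shared with Dkkl1 and another of 8.4. In the window of Cd24a, 1700021F05Rik had 218.73 and F930017D23Rik 27.73, and the distal DHS did not exceed 15.97.

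Cd38 had the most DHS of the 7 windows. Upstream lay Bst1, its paralog with the same enzyme activity, with a promoter score of 52.35. That DHS was centred at -31279 bp, near a TSS inside Bst1, whereas the 5′-most TSS of Bst1 lay at -49916 bp. The DHS next to the 5′-most TSS had scores of 13.05 and 12.05. A distal DHS of 1648 bp and score 137.26 lay over exon sequence of Bst1, centred at -26557 bp from the Cd38 TSS. Between the paralogs came DHS with scores of 69.66 at -22694 bp, 64.0 at -15003 bp and 50.29 at -12986 bp, against 61.95 at the Cd38 promoter itself. The highest score of the window, 281.02, lay 79331 bp downstream of the Cd38 TSS, and a DHS of Fbxl5 had 50.02. The former overlapped no annotated gene and was of the promoter class through Gm5292, with its centre 3657 bp upstream of the Gm5292 TSS.

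**Figure D4:**
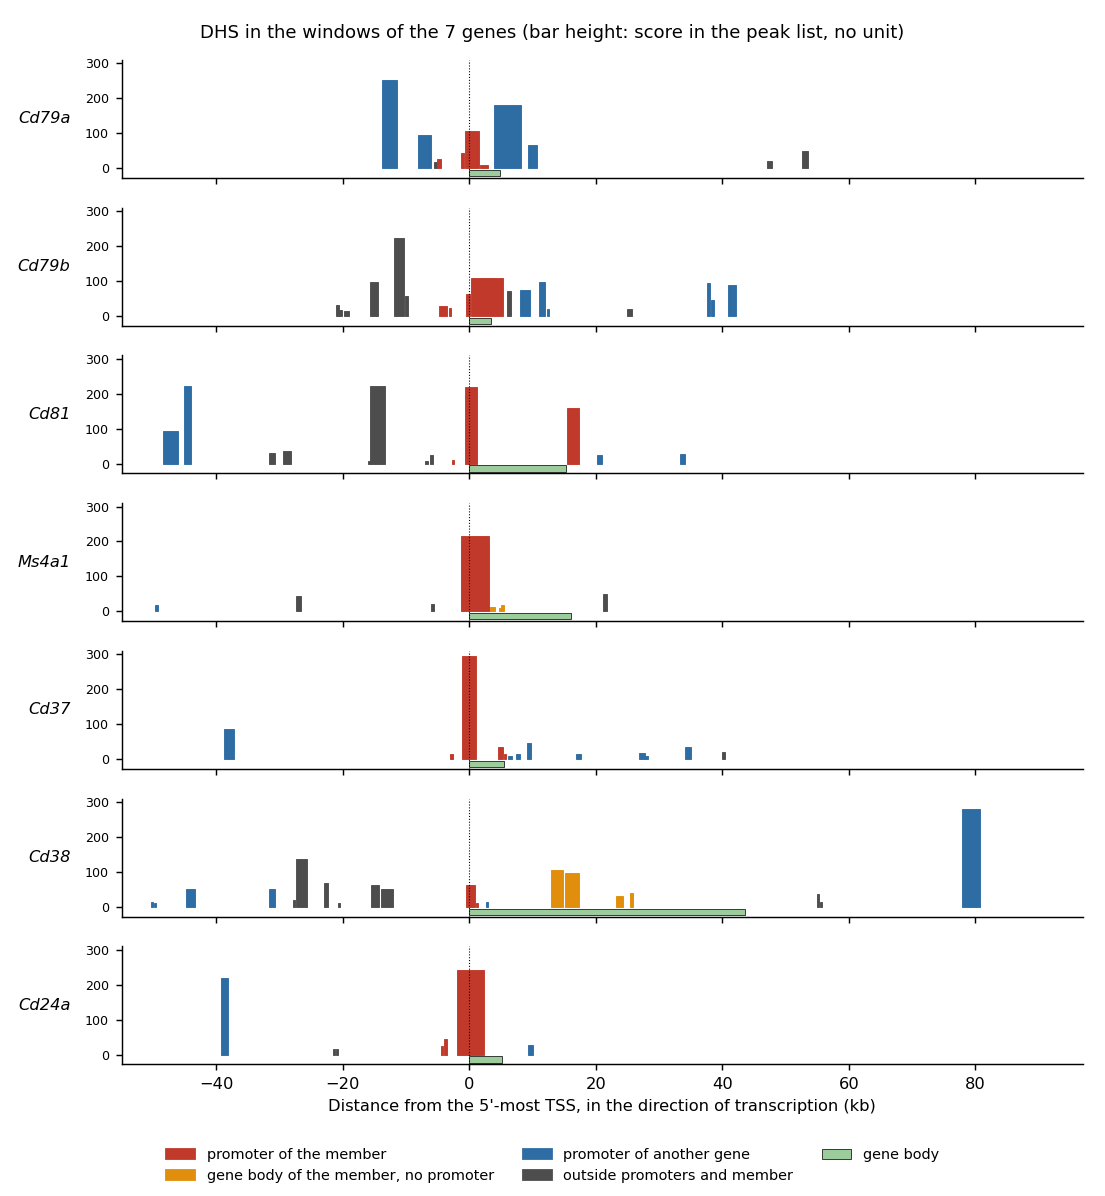
All 90 DHS in the windows of the 7 genes, by distance from the 5′-most TSS in kb (in the direction of transcription) and score (bar height, no unit), coloured by whether they lie at a promoter of the gene, in its body, at a promoter of another gene or elsewhere; green boxes are gene bodies. The promoter of the gene is the highest bar at Ms4a1, Cd37 and Cd24a, while at Cd79b (223.29) and Cd81 (222.8) a distal bar is the highest.

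A pair of the DHS upstream of Cd38 is shown in part, because short words stood close together in them. The first (chr5:44237382-44237444, +) lies in the DHS of score 69.66 and holds the NF-kB word GGGANTTTC, the EBF1 word on both strands and the RUNX word TGTGGTTT within 31 bases. The second (chr5:44245152-44245255, +) lies in the DHS of score 64.0 and holds 2 copies of the octamer ATGCAAAT, the site of Oct factors, within 72 bases. Capitals mark the words, which are read on either strand.
Cd38 upstream words: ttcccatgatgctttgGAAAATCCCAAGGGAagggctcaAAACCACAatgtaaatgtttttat
Cd38 upstream octamers: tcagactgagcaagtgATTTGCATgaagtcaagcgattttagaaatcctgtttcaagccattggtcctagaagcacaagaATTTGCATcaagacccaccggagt

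Exact words were then counted over all 90 DHS. The PU.1 word was present in 15.6% of them (8.77 to 24.7), against 8.90% of all DHS. With 1 mismatch allowed the shares were 63.3% and 65.1%, and in the central 300 bp 3.33% and 3.61%, so that the higher share was not seen under either setting. By peak class the exact word was found in 19.2% against 8.87% of promoter DHS and in 10.5% against 8.92% of distal DHS. The EBF1 word was present in 21.1% (13.2 to 30.99), against 17.7% of all DHS. The E-box was found in 42.2% and 39.3%, the CTCF word CCANNAGGG in 23.3% and 17.8%, and the NF-kB word in 5.56% and 3.66%. The ETS-IRF word GAANNGAAA (20% against 24.3%), the GC box (13.3% against 15.9%), the RUNX word (6.67% against 7.15%) and the octamer (4.44% against 4.70%) were not above the share of all DHS. For every word the share of all DHS lay inside the interval, and for PU.1 it lay just above the lower bound. In 122 regions of the same width 5 kb away from the 90 DHS the share was 4.10% for PU.1, 13.9% for EBF1, 22.1% for ETS-IRF and 9.02% for the octamer, so that the last 2 words were more frequent there than in the DHS.

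The words were also counted per gene over all its promoter DHS, a count made after the other values were known. Each of the 7 genes had at least 1 EBF1 word in its promoter DHS, as had 38.3% of the 12747 genes with a promoter DHS. The PU.1 word was found in 5 of 7 genes, against 15.4%, and the E-box in 7 of 7, against 59.9%. The ETS-IRF word was found in 4 of 7 (40.7%), the CTCF word in 4 of 7 (33.4%) and the GC box in 5 of 7 (50.3%). The RUNX word was found in 1 of 7 (11.2%), and the NF-kB word (7.23%) and the octamer (7.77%) in 0 of 7. The 7 genes had more promoter DHS sequence to search, with a median of 4353 bp against 1792 bp. Among the 6579 genes whose promoter DHS added up to between 1739 and 7393 bp, the range of the 7 genes, the shares were 48.4% for EBF1, 21.2% for PU.1 and 73.1% for the E-box, at a median of 2514 bp.

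Within the promoter DHS of each gene, the EBF1 word lay in the DHS over the TSS at 4 genes, Cd79b, Ms4a1, Cd37 and Cd24a. At Cd24a it occurred 3 times, centred 857, 1117 and 2075 bp downstream of the TSS. Among promoter DHS, it lay at Cd79a and Cd38 only in low-scoring ones (7.74 and 10.7), and at Cd81 only in the one shared with Tssc4. The PU.1 word occurred at Cd37 with 3 copies in the DHS over the TSS centred at -306, 255 and 428 bp. The upstream copy is shown with 16 bases on each side (chr7:52494772-52494811, - strand), because it stands in the DHS with the highest promoter score of the 7 genes.
Cd37 PU.1: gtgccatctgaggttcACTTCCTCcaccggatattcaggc

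As the study is about p53, the DHS were searched for the p53 response element, a pair of decamers, with at most 2 mismatches. The core C and G of each decamer had to match. Elements with a spacer between the decamers, which the study also counted, were not searched. It was found in 4 of the 90 DHS (4.44%, 1.22 to 10.99), against 1.02% of all DHS, or 40.9 against 11.4 elements per Mb of DHS. All 4 had 2 mismatches, the most allowed, so that a stricter search would find none of them, and no alternative setting was run for this count. One lay in the wide promoter DHS of Ms4a1, in an intron (chr19:11339307-11339326), one in the low DHS upstream of Cd37 (chr7:52497400-52497419), one in the DHS of score 64.0 upstream of Cd38 (chr5:44244582-44244601), and the last in the Rps19 promoter DHS near Cd79a. The first 3 are printed on the + strand of mm9, with the 4 core bases of each decamer in capitals. No binding of p53 was measured in these 2 libraries.
Ms4a1 element: agtCATGcttggaCACGtct
Cd37 element: caaCTAGcccaggCTGGcct
Cd38 element: gaaCAAGcccgggCAGGatc

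The partners and relatives of the 7 genes were looked up in the same way. Of the genes of the receptor complex and its signalling pathway, 18 of 20 names were found in the annotation, and 18 of 18 had a promoter DHS (81.5 to 100%), against the 57% of all genes. Their median top score was 163.1 (64.72 to 349.72), which is above that of Cd79a and Cd79b, and the highest were at Pik3cd, a lipid kinase subunit (349.72), and the kinase gene Lyn (281.11). Ptprc, also in this list, encodes the B220 antigen on which the cells were sorted, and Cd22, Cr2 and Blk are among the genes that stand also in the list of B cell markers.

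In the families of the surface genes promoter DHS were not found at every member. Of 25 other tetraspanin genes 18 (72.0%, 50.6 to 87.9) had a promoter DHS, with a median top score of 67.9. The highest were Cd82 (321.93), Tspan32 (222.47) and Tspan14 (201.65), of which Cd82 lay above both Cd37 and Cd81, and Tspan32 above Cd81. Of 15 other MS4A genes 7 (46.7%, 21.3 to 73.4) had one, with a median of 30.1, and only Ms4a10 (271.24) scored above Ms4a1. The next were Ms4a4c (75.72) and Ms4a6b (31.43). Bst1, the relative of Cd38, had a promoter score of 52.35, where Cd38 had 61.95. The Bst1 score belongs to a TSS inside the gene, and the DHS next to the 5′-most TSS of Bst1 had 13.05 and 12.05.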

How the data were processed

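DNase-seq data of splenic B cells consisted of 1 DNaseI and 1 input library. The authors digested nuclei with several DNase I concentrations, sequenced the digest with the best qPCR signal and deposited one list of MACS peaks with a score per peak, whose scale, caller version and settings are not given in the sources used here. The MACS settings that the study states are for ChIP-seq and were not assumed to hold for this list. The submitters' processing notes name BWA 0.6.2, SAMtools and mm9. The input library was not used here beyond its part in the authors' peak calling. Depth is unknown.

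Peaks were placed on mm9 and GENCODE M1 (95414 TSSs), and positions are counted from 1. Promoters began 5 kb before and ended 2 kb after any TSS of a gene, and windows from 50 kb before to 50 kb after the gene. Percentiles are ranks among protein-coding genes on chromosomes 1 to 19 and X, and genes of like length are those within a factor of 2. Words were counted exactly, on both strands, with overlaps allowed. The scripts, written with Python 3.11.15, numpy 2.4.6, pandas 2.3.3, scipy 1.17.1 and matplotlib 3.10.9, were tested on simulated data. With 1 library there is no test and no p-value.

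The genes and lists were chosen with earlier results of these data known. Named are all 7 genes with every DHS of their own promoter, the highest-scoring DHS of the gene body and of the distal class, and up to 5 neighbours with a promoter DHS. From a list, genes lacking a promoter DHS are given if there are under 6 of them, else those that have one if under 6, else the 3 with the highest score. Other DHS, the words shown and the count per gene were picked after their values were seen. Some items are not reported here, so that not every gene this rule covers is named. Alternatives were a promoter of 1 kb on each side, flanks of 10 and 100 kb, peaks at or above the median score, merging at gaps under 500 bp, peak centres, protein-coding transcripts or genes only, summed scores, words with at most 1 mismatch, in the central 300 bp, by peak class and in regions 5 kb away.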

Additional observations from a re-analysis of the deposited data

How the results depend on the processing

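All 7 genes kept a promoter DHS with a promoter of 1 kb on each side, with the peaks from the median score up, with peak centres and with protein-coding transcripts only. The share of all protein-coding genes, 57.0%, moved to 53.65%, 50.25%, 56.49% and 56.33% under these settings. The 90 DHS in the windows became 47 with flanks of 10 kb, 140 with flanks of 100 kb and 47 with the peaks from the median score up. The median per 100 kb of 11.3 became 17.05 with flanks of 10 kb and 5.21 with the higher scores, where the median of all genes was 3.39 and 1.78, and the covered share of 12.96% became 21.4% with flanks of 10 kb. The promoter share of 57.8% fell to 37.8% with the narrow promoter, against 36.1% for all DHS, and rose to 63.8% with the peaks from the median score up, against 62.1%, so that the difference from all DHS was small under both. The difference remained with peak centres, at 55.6% against 45.9%, and with protein-coding genes only, at 56.7% against 43.5%. The share of DHS with any of 9 words, 72.2%, became 100% with 1 mismatch and 42.2% in the central 300 bp. Of 85 alternatives in all, 34 moved a share outside its 95% interval or a count or median by over 1.5 times, 22 of them among 45 for single words. No paired analysis was possible because there is 1 library per group, and for the same reason no replicate could be left out. The depth, which is unknown, limits which DHS were called, and broad sites may be split differently by other callers.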

Other observations

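The windows also held 25 other protein-coding genes, of which 19 (76.0%) had a promoter DHS, against 57% of all protein-coding genes. The 5′-most TSS itself lay inside a DHS in 10 of the 25, against 40.7% of all genes, so that by this measure they were near the background. The 6 without one were Dmrtc2 and Lypd4 near Cd79a, Scn4a near Cd79b, Kcnq1 near Cd81, and Ms4a5 and Ms4a12 near Ms4a1. The nearest DHS beyond a window lay between 453 bp (Cd37) and 35679 bp (Cd81) outside it. A few distal DHS lay partly in repeated sequence, with 40.3% and 29.7% of 31-base words occurring more than once in the assembly at a pair near Ms4a1, 36.3% at one near Cd81 and 34.3% at one near Cd38.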
